A study of Mus musculus with 12 samples.

Results

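The comparison described here sets Gdap1-null mouse embryonic fibroblasts at day 4 of reprogramming against the same cells at day 0, and it takes 6 of the 12 arrays of the series by their labels. Embryonic fibroblasts are connective-tissue cells grown out of the mouse embryo, here in DMEM with 10% FBS. The 3 arrays called KO day 0 carry RNA of Gdap1-null cells before reprogramming, and the 3 called KO day 4 carry RNA of Gdap1-null cells 4 days after expression of Oct4 (Pou5f1), Sox2, Klf4 and cMyc (Myc). Both groups lack Gdap1, so the comparison holds the genotype fixed and asks what those days of reprogramming changed in cells without the gene. The other 6 arrays, WT day 0 and WT day 4, carry RNA of wild-type fibroblasts and are used as the matching step in cells with Gdap1. A treatment text shared by all arrays speaks of overnight mock or OSKM transduction and does not say which of them the day 0 cells had. No batch is given either, so batch and group, like transduction, the factors and time in culture, cannot be told apart in any change given below. Neither the allele nor the number of animals or cultures behind the arrays is given, so p-values measure the spread between these samples, which may be technical.

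The Gdap1 protein sits in the outer membrane of mitochondria and helps to divide them, and its loss in people causes a form of Charcot-Marie-Tooth neuropathy. Fibroblasts that receive the 4 factors first lose features of the mesenchymal cell, such as its contractile fibres and matrix, and gain epithelial ones, while the genes of the pluripotent state itself usually turn on later and in few cells. Whole-population arrays read the average of all cells in the dish, so that fewer cells of a type and less RNA per cell cannot be told apart.

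Values are log2 levels, on which a difference of 1 is a 2-fold change, for 22180 genes. Array medians over these genes lay between 5.22 and 5.32, and the mean correlation of an array with its own group lay between 0.987 and 0.997 across genes. Spread between arrays of a group was small, with a gene's SD at a median of 0.09 in KO day 0 and 0.12 in KO day 4 (n = 3 each). The day 4 arrays of both genotypes were less alike. KO day 4 array 2 was the KO array nearest to day 0 for 2099 of the 3757 genes that fell and for 1733 of the 3071 that rose, and without it 6701 genes passed in place of 6828. WT day 4 array 2 held the same place for 56.6% of the genes that fell in WT cells. WT day 4 array 1 had the lowest mean correlation with its own group, 0.987, and the lowest weight when limma weighted arrays by their fit, 0.314 against 0.586 for KO day 4 array 2. Without it 7646 genes passed in KO cells, since all 12 arrays share 1 estimate of the spread. Gdap1 itself read 3.10, 2.97 and 3.28 on the KO day 0 arrays and 3.21, 2.98 and 3.28 on the KO day 4 arrays. On WT arrays it read 3.30, 3.24 and 3.04 before and 2.82, 3.02 and 3.15 after. With a mean level at the 14.1 percentile, near the floor of the array, this gene checks nothing about the genotype.

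At day 4 the Gdap1-null cells differed from day 0 across a large share of the measured genes. Of 22180 genes, 6828 (30.8%) passed a Benjamini-Hochberg adjusted p under 0.05 in limma's moderated test. Higher at day 4 were 3071 genes (13.8%) and lower were 3757 (16.9%). Most of these changes were small, with a median of 0.52 among the genes that rose and -0.48 among those that fell. At least 2-fold changes were found for 529 rises (2.39%) and 305 falls (1.38%). At least 4-fold changes numbered 105 rises against 24 falls, and at least 8-fold changes 26 rises against 1 fall. Centring each array on its median moved the split from 3071 higher and 3757 lower (45.0% higher) to 2440 and 4751 (33.9% higher). Of the genes past the threshold, 109 still had a day 4 array within the range of the day 0 arrays. The KO day 4 arrays lay wholly above the KO day 0 arrays for 4551 genes (20.5%) and wholly below for 5497 (24.8%).

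Ceacam1, a cell adhesion molecule of epithelia, had the largest rise. It read 3.42, 4.30 and 4.14 at day 0 and 9.07, 8.58 and 9.35 at day 4, which is a 33.0-fold change (log2 change 5.05 ± 0.23, SE, with n = 3 arrays a group, adjusted p = 3.4e-08). Sostdc1, which is secreted and blocks BMP and Wnt ligands, read 5.31, 5.13 and 5.51 at day 0 and 10.07, 9.91 and 10.21 at day 4, a 26.8-fold change (4.75 ± 0.23, adjusted p = 4.53e-08). In both genes the groups were several units apart and did not overlap, the latter being required by the rule for naming them. Among the 20 largest rises, Crym, which binds thyroid hormone, rose by 4.49, the steroid reductase Akr1c18 by 4.16, the aldehyde dehydrogenase Aldh3a1 by 4.15, the carboxylesterase Ces1f by 4.28 and guanine deaminase Gda by 3.41. Akr1c18 had the tightest arrays of these, at 4.77, 4.56 and 4.46 before and 8.80, 8.70 and 8.76 after. Ces1f started near the floor of the array, at 3.15, 3.06 and 3.16, so the size of its rise is uncertain. Lbp, which binds bacterial lipopolysaccharide, rose by 4.45 ± 0.37 (adjusted p = 3.28e-06). Oas2, an antiviral enzyme made under interferon, rose by 4.32 ± 0.52 (adjusted p = 4.65e-05).

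Cd34, a sialomucin of progenitors and of adventitial fibroblasts, was also among the 20 largest rises. It read 7.80, 7.86 and 7.92 at day 0 and 11.32, 11.18 and 11.36 at day 4 (3.42 ± 0.10, adjusted p = 4.27e-10). The ferritin receptor Scara5 rose by 3.61, the G protein subunit Gna14 by 3.57, the chloride channel Ano1 by 3.36 and the matrix protein Sbspon by 3.29. Tek, the angiopoietin receptor, rose 17.4-fold, from 4.02, 4.21 and 3.84 to 8.35, 7.74 and 8.35 (4.12 ± 0.17, adjusted p = 1.92e-08). Stmn2, a regulator of microtubules best known in neurons, rose by 3.31 ± 0.17 (adjusted p = 8.88e-08). Shisa3, which inhibits Wnt and FGF signals, rose by 3.24 ± 0.59, the least precise of these changes (adjusted p = 0.00101). In all of these genes the lowest day 4 array lay above the highest day 0 array, which the rule for naming them required.

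**Figure D1:**
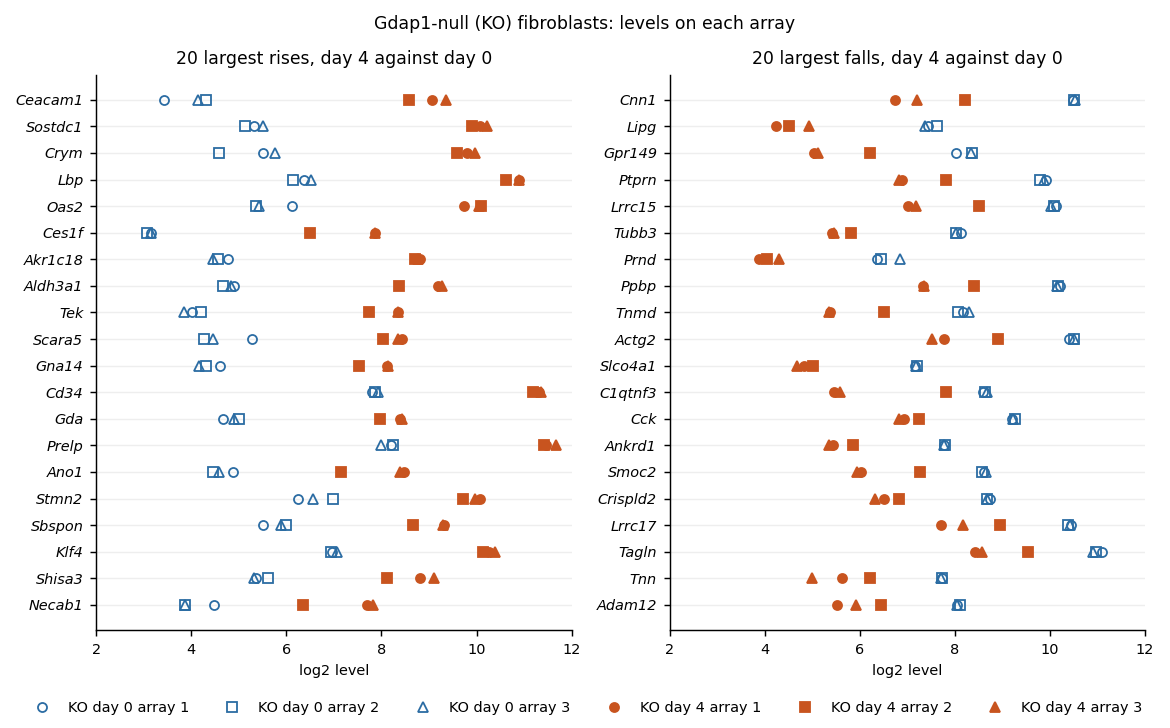
Log2 level of the 20 genes with the largest rises (left) and the 20 with the largest falls (right) on each of the 6 KO arrays; open blue symbols are day 0, filled orange symbols day 4, and the symbol shape gives the array number. Ceacam1 moves from 3.42 to 4.30 up to 8.58 to 9.35, Cnn1 from 10.49 to 10.53 down to 6.73 to 8.21, and the square of day 4 array 2 lies nearest to day 0 for many falls.

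Cnn1, or calponin, which binds actin in smooth muscle, had the largest fall. It read 10.49, 10.50 and 10.53 at day 0 and 6.73, 8.21 and 7.20 at day 4, an 8.73-fold fall (-3.13 ± 0.43, adjusted p = 0.00012). The groups were far apart, although the day 4 arrays themselves ranged over more than 1 unit. Tagln and Actg2, both smooth muscle genes as well, fell by 2.15 ± 0.32 and 2.41 ± 0.32. Lrrc15, a marker of activated fibroblasts, fell by 2.52, the tendon protein Tnmd by 2.43, Smoc2 by 2.20, Crispld2 by 2.16, Lrrc17 by 2.15, tenascin-W (Tnn) by 2.11 and the metalloprotease Adam12 by 2.10. Endothelial lipase Lipg read 7.44, 7.63 and 7.36 at day 0 and 4.23, 4.52 and 4.94 at day 4 (-2.91 ± 0.18, adjusted p = 4.12e-07). Ptprn, a protein of secretory granules, fell by 2.69, the neuronal tubulin Tubb3 by 2.50 and the peptide hormone Cck by 2.23. C1qtnf3, also among the 20, fell by 2.34 ± 0.63 (adjusted p = 0.0122), but its day 4 arrays read 5.46, 7.82 and 5.59. That call was lost without KO day 4 array 1 or 3 and with a trended and robust prior (adjusted p between 0.0501 and 0.0584).

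Of the 4 introduced factors, Klf4 gave the clear signal. It read 6.96, 6.94 and 7.06 at day 0 and 10.27, 10.14 and 10.38 at day 4, a 9.69-fold rise (3.28 ± 0.09, adjusted p = 2.92e-10). Pou5f1 rose by 0.38 ± 0.09 (adjusted p = 0.00541), from 5.23, 4.96 and 5.03 to 5.33, 5.52 and 5.50. Sox2 read 4.79, 4.38 and 4.27 before and 4.24, 4.48 and 4.42 after (-0.10 ± 0.12, adjusted p = 0.599). Myc fell, from 8.79, 8.73 and 8.74 to 7.81, 7.84 and 7.80 (-0.94 ± 0.08, adjusted p = 4.92e-06). Whether these probe sets read the introduced or the cell's own transcripts was not tested. Among the other 16 Kruppel-like factors 4 rose and 3 fell. Klf10, Klf9, Klf3 and Klf11 rose by between 0.74 and 1.11.

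Genes of the pluripotent state changed little in measured level. Of 11 pluripotent stem cell markers, Pou5f1 passed as higher and Lin28a as lower, and 2 were higher without KO day 4 array 2. Nanog, the homeobox factor of the naive state, read 4.57, 4.68 and 4.62 at day 0 and 4.81, 4.75 and 4.92 at day 4 (0.20 ± 0.11, adjusted p = 0.211). Zfp42, Dppa3, Dppa5a, Esrrb, Fgf4, Tdgf1 and Utf1 gave changes between 0.03 and 0.22, and none of them passed. Lin28a, an RNA-binding protein, gave -0.46 ± 0.16 (adjusted p = 0.0492), and without KO day 4 array 2 it gave -0.23 (adjusted p = 0.155). The call was also lost without KO day 4 array 1, without any 1 of the KO day 0 or WT day 0 arrays and without WT day 4 array 2 or 3, and with the KO arrays fitted alone or all probe sets tested, at adjusted p up to 0.168. In the wider network of 34 genes 6 (17.6%) rose and 3 (8.82%) fell, against 13.8% and 16.9% of all genes. Mean levels of 8 of the 34 lay under 3.75, below which 25% of genes lay, which limits what can be said of them. Tet2 and Tet1, which oxidise methylated cytosine, rose by 0.90 and 0.81, and Fbxo15, an early marker of reprogramming, rose by 1.14 ± 0.17 (adjusted p = 0.000244). Fbxo15 started from a KO day 0 mean of 3.43, under 3.75, so the size of its rise is uncertain. Tbx3 fell by 1.15 ± 0.08 and the corepressor Trim28 by 0.79 ± 0.08.

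The label of fibroblast held in both groups. Vim and Fn1, intermediate filament and fibronectin, lay above 12 on every KO array, and the fibroblast factor Prrx1 read 11.01 ± 0.01 at day 0 and 11.08 ± 0.02 at day 4 (mean ± SD, n = 3). Of 13 fibroblast markers 2 (15.4%) rose and 5 (38.5%) fell, with a median change of -0.04. Of all genes 13.8% rose and 16.9% fell. Dcn, the proteoglycan decorin, rose from 11.06, 10.95 and 11.14 to 11.99, 12.16 and 11.97, and Twist1 rose by 0.57 ± 0.11. S100a4 fell by 0.97 ± 0.08, the PDGF receptor Pdgfrb by 0.90 ± 0.13, the surface marker Thy1 by 0.45 ± 0.08 and the collagen chain Col1a1 by 0.55 ± 0.11. Col1a2 passed with -0.31 ± 0.10 (adjusted p = 0.0328), a call lost without any 1 of the KO day 0 arrays and without KO day 4 array 1 or 3, and with quantile normalization, averaged probe sets or all probe sets tested (adjusted p up to 0.308). Col3a1, Pdgfra, Lum, Fn1, Vim and Prrx1 gave changes between -0.06 and 0.08. Per array, the mean of the 13 markers moved by -0.22 and -0.20 on day 4 arrays 1 and 3 and by 0.07 on array 2.

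Markers of other cell types were counted in the same way, beside shares of all genes of 13.8% higher and 16.9% lower. Of 17 macrophage and blood markers 1 rose, the leukocyte membrane protein Laptm5 (1.05 ± 0.11, from at most 3.92 to at most 5.09). Without WT day 4 array 1 the count was 3. The mean of those 17 markers lay between 4.78 and 4.91 on day 0 arrays and between 4.89 and 4.94 on day 4 arrays. Of 15 endothelial markers 2 rose and 3 fell: Tek and Plvap (0.67) against Emcn (-0.75), Kdr (-0.50) and Flt1 (-0.91). Of 16 skeletal muscle markers only Acta1 passed, with -1.45 ± 0.21, and 2 fell without KO day 4 array 2. Of 14 neural and Schwann cell markers Tubb3 fell while 4 rose by 0.80 or less. The count of rises was 1 without KO day 4 array 1 and 2 without KO day 0 array 2 or 3 or KO day 4 array 3. Of 9 adipocyte markers Lpl (1.10), Cebpa (0.97) and Fabp4 (1.45) rose. Of 10 keratinocyte markers Perp (2.82), Krt14 (0.67) and Trp63 (0.44) rose and Krt10 (-0.39) and Dsg3 (-0.25) fell, with a median of -0.13. The call of Dsg3, which read 3.31 or less on all KO arrays, was lost without KO day 0 array 1 or 3, without KO day 4 array 3 and under 4 other settings (adjusted p between 0.0532 and 0.141). The part of other cell types in the changes described here was not tested.

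Contractile genes fell nearly throughout. Of 33 genes of the actin cytoskeleton and smooth muscle, 30 (90.9%) fell and 0 rose, with a median change of -0.95, against 16.9% of all genes falling. By limma, the 3 that did not pass also had negative values, since the list ran from -3.13 to -0.25. Acta2, smooth muscle actin, read 12.61, 12.65 and 12.67 at day 0 and 11.39, 11.79 and 11.39 at day 4 (-1.11 ± 0.14, adjusted p = 6.88e-05). Flna, the filamin that crosslinks actin, read 11.27, 11.25 and 11.28 before and 9.88, 10.22 and 9.90 after (-1.26 ± 0.11, adjusted p = 4.66e-06). For both genes the groups were separate, and day 4 array 2 was the highest of the day 4 arrays. Pdlim7, a LIM protein of stress fibres, fell by 1.40 ± 0.09, Lmod1 by 1.55 ± 0.17, Tagln2 by 1.06 ± 0.11 and Ankrd1, a mechanical stress gene, by 2.23 ± 0.14. The mean of the list moved by -1.21, -0.82 and -1.20 on day 4 arrays 1, 2 and 3. Without array 2, 30 members fell and the median change was -1.07.

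Targets and partners of the mechanosensitive factors YAP and SRF were more divided, with 5 of 34 higher (14.7%) and 14 lower (41.2%). The shares of all genes were 13.8% and 16.9%. Srf itself fell by 0.74 ± 0.08, cofilin (Cfl1) by 0.94 ± 0.10, Ajuba by 0.66 ± 0.08 and the matricellular protein Ccn2 by 1.48 ± 0.21. Wwtr1, or TAZ, the partner of YAP, rose by 0.55 ± 0.08. Of 21 tubulins and related microtubule genes 15 (71.4%) fell and 3 (14.3%) rose. Tubb6 read 10.37, 10.41 and 10.44 at day 0 and 8.56, 8.81 and 8.46 at day 4 (-1.80 ± 0.11, adjusted p = 2.09e-07). Tuba1a fell by 1.61 and Map1b by 0.86, while Stmn2 and Tubb4a (1.27) rose.

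Matrix genes changed in both directions. Of 33 collagen chains 14 (42.4%) fell and 3 (9.09%) rose, against 16.9% and 13.8% of all genes. The anchoring fibril chain Col7a1 fell by 1.41 ± 0.12 and Col5a3 by 1.20 ± 0.13, whereas Col28a1 rose by 1.34 ± 0.10 and the basement membrane chain Col4a5 by 0.86 ± 0.09. Of 13 small leucine-rich proteoglycans, which decorate collagen fibrils, 6 (46.2%) rose and 1 (7.69%) fell. Prelp read 8.21, 8.25 and 7.98 at day 0 and 11.46, 11.41 and 11.67 at day 4 (3.36 ± 0.12, adjusted p = 4.92e-09), and Dcn, Podn, Kera, Omd and Ogn rose by between 0.96 and 1.26. Of 28 elastic fibre and matricellular genes 7 rose and 10 fell. Efemp1, a fibulin, rose by 2.02 ± 0.08 with arrays of 8.69, 8.78 and 8.79 before and 10.74, 10.81 and 10.76 after. Ccn4, Ltbp2 and Ltbp1 fell by 1.90, 1.53 and 0.86.

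Receptors for the matrix went both ways. Of 28 integrins and laminins 11 (39.3%) rose and 8 (28.6%) fell, against 13.8% and 16.9% of all genes. Itgb4, which with Itga6 forms the laminin receptor of hemidesmosomes, read 5.06, 4.54 and 4.91 at day 0 and 7.53, 6.96 and 7.59 at day 4 (2.52 ± 0.16, adjusted p = 4.96e-07). Itga6 rose by 1.34 ± 0.09, and the laminin chains Lama2, Lama4 and Lamc1 by 1.88, 1.17 and 0.84. Itga5, the fibronectin receptor, fell from 10.46, 10.45 and 10.38 to 9.12, 9.43 and 9.12 (-1.20 ± 0.11). Among 26 metalloproteinases and inhibitors 4 (15.4%) rose and 7 (26.9%) fell. Mmp28 rose by 1.82, the aggrecanase Adamts5 by 1.46 and the inhibitor Timp3 by 0.52, and Mmp10 fell by 1.84 ± 0.21.

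Genes that mark adventitial fibroblasts, the progenitor-like cells around vessels, rose with Cd34. Of 26 measured, 13 (50%) rose and 2 fell, against 13.8% of all genes rising. Pi16 read 4.64, 4.48 and 4.50 at day 0 and 6.47, 6.57 and 7.05 at day 4 (2.16 ± 0.15, adjusted p = 1.01e-06), and the peptidase Dpp4 rose by 1.84 ± 0.14. The secreted Wnt inhibitors Sfrp2 and Sfrp4 rose by 1.69 ± 0.10 and 2.33 ± 0.25. Like every list in this report, this one was chosen with earlier results of these arrays known. No list's count is therefore independent evidence of the direction of its genes.

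Signalling families were compared with the shares of all genes, 13.8% higher and 16.9% lower. Of 23 TGF-beta genes 11 (47.8%) fell and 3 (13.0%) rose: the activin subunit Inhba fell from 9.07, 9.04 and 9.15 to 7.26, 7.90 and 7.24 (-1.62 ± 0.18, adjusted p = 2.67e-05), the feedback gene Pmepa1 fell by 1.29 and Skil by 0.81, and the coreceptor Eng rose by 0.52. Of 31 BMP genes 6 (19.4%) rose and 8 (25.8%) fell, with Bmp6 up by 2.09 ± 0.15 beside Sostdc1, and the receptor Bmpr1b down by 1.23 ± 0.11. Of 42 Wnt genes 13 (31.0%) rose and 11 (26.2%) fell. Wnt16 rose by 1.87 ± 0.12 and the R-spondin receptor Lgr4 by 1.11 ± 0.10, whereas the inhibitors Frzb and Nkd2 fell by 0.93 and 0.86. Of 36 growth factor and IGF genes 7 (19.4%) rose and 15 (41.7%) fell. Igfbp5 fell from 10.71, 10.67 and 10.71 to 9.18, 9.67 and 9.19, and Igfbp3 rose from 9.98, 10.12 and 10.19 to 10.92, 11.27 and 11.01.

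Many genes needed for division fell at day 4, when 16.9% of all genes were lower and 13.8% higher. Of 60 genes of G2/M and mitosis, 42 (70%) fell and 1 rose, with a median change of -0.51, and of 53 genes of DNA replication 32 (60.4%) fell and 3 rose, with a median of -0.33. Prc1, which bundles the microtubules of the spindle midzone, read 9.11, 9.12 and 9.09 at day 0 and 8.18, 8.12 and 8.17 at day 4 (-0.95 ± 0.07, adjusted p = 1.81e-06). Cdc25c, the phosphatase that starts mitosis, read 6.74, 6.86 and 6.69 before and 5.57, 5.58 and 5.56 after (-1.20 ± 0.09, adjusted p = 1.89e-06). In each of them the arrays of a group lay close together and the gap between the groups was many times wider. Naming by smallest p favours such genes, so this is no added evidence. The kinesins Kif20a and Kif2c each fell by 0.95, the centromere motor Cenpe by 1.01 and the mitotic kinase Aurka by 0.80. In replication, Mcm5, a subunit of the replicative helicase, fell from 9.26, 9.24 and 9.20 to 8.07, 8.13 and 8.27 (-1.08 ± 0.14, adjusted p = 8.16e-05), and the helicase subunit Cdc45, the flap nuclease Fen1 and thymidine kinase Tk1 fell by 0.84, 0.71 and 0.64. Day 4 array 2, which lay nearest to day 0 for contractile genes, had the lowest means of both lists, at -0.56 for mitosis and -0.36 for replication.

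The regulators of the cycle did not all follow. Of 23 E2F factors and G1/S cyclins 4 (17.4%) rose and 9 (39.1%) fell, against 13.8% and 16.9% of all genes. Ccnd1, cyclin D1, rose from 9.87, 9.79 and 9.78 to 10.66, 10.64 and 10.76 (0.87 ± 0.08, adjusted p = 3.99e-06), and Rb1, the retinoblastoma protein that restrains E2F, rose by 1.77 ± 0.16. E2f8 fell by 1.04 ± 0.11 and Cdk4 by 0.45 ± 0.09. Of 37 CDK inhibitors and p53 targets 10 (27.0%) rose and 13 (35.1%) fell. The inhibitors Cdkn1c and Cdkn1b rose by 1.57 and 0.67, and the stress genes Sesn2, Plk2 and Plk3 fell by 1.38, 1.38 and 1.07.

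Promoters of these lists were searched for the short motifs that their known regulators use, in the 250 bases before to 50 after each gene's start (RefSeq, GRCm38.p6, both strands). The cell cycle homology region, TTTGAA or TTCGAA, was found in 39 of the 49 mitosis members with a promoter (79.6%) and in 17.4% of all 16990 promoters, and CCAAT in 77.6% against 38.5%. An E2F site, TTTCCCGC, TTTGGCGC or TTTCGCGC, was found in 15 of 44 replication members (34.1%) and in 2.53% of all promoters. A match describes letters and not binding. Of the 35 mitosis genes that fell and have a promoter, 29 hold the first motif, and of the 26 such replication genes 7 hold the E2F site. Shown are the promoters of the member of each list with the smallest p among those with a match, Prc1 on the plus strand of chr7:80294201-80294500 and Mcm5 on the plus strand of chr8:75109259-75109558, with the matches in capitals, which overlap in Mcm5.
Prc1: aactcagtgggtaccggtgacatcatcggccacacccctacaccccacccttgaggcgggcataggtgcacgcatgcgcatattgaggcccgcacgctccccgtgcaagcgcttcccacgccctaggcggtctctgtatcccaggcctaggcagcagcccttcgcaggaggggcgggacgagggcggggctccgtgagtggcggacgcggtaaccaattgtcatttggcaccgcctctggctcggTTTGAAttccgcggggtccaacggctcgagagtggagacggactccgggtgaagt
Mcm5: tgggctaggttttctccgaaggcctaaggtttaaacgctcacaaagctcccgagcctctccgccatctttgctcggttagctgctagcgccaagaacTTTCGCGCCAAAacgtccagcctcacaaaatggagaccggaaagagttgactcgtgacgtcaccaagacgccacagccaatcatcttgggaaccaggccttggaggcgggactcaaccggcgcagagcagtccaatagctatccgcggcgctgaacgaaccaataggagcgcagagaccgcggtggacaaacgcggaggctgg

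Genes of the growth machinery fell as well, beside shares of all genes of 16.9% lower and 13.8% higher. Of 30 ATF4 targets and amino acid synthesis genes 20 (66.7%) fell and 2 rose, with a median of -0.55, and of 17 aminoacyl-tRNA synthetases, which charge tRNAs, 13 (76.5%) fell and 0 rose (median -0.58). Mthfd2, the mitochondrial folate enzyme, read 8.51, 8.48 and 8.63 at day 0 and 6.33, 6.56 and 6.43 at day 4, a 4.29-fold fall (-2.10 ± 0.12, adjusted p = 2.02e-07). Chac1, which degrades glutathione, read 7.65, 7.54 and 7.60 before and 5.69, 5.99 and 5.62 after (-1.83 ± 0.13, adjusted p = 1.08e-06). The transaminases Bcat1 and Psat1 fell by 1.32 and 0.75, and the factor Atf5 by 1.43. Among synthetases Tars, Hars and Cars fell by 0.99, 0.91 and 0.79. The transporter list followed with 12 of 24 lower and 5 higher: Slc7a5, which imports large amino acids, fell by 1.06 ± 0.10 and Slc38a2 by 0.79 ± 0.08, while Slc36a4 rose by 0.75. The composite element TGATGCAA, which ATF4 binds with C/EBP proteins, was found in 5 of 28 promoters of the target list (17.9%) and in 0.783% of all promoters, and 2 of the 19 members that fell and have a promoter hold it. The promoter of Chac1, plus strand, chr2:119350992-119351291 (GRCm38.p6), shows the match in capitals, on its other strand.
Chac1: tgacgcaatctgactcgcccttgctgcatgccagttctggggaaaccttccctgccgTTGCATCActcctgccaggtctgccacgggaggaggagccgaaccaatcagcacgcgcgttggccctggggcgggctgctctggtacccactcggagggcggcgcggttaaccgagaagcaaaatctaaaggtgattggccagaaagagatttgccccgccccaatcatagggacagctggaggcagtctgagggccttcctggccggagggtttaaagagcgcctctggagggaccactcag

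Ribosome production and protein handling moved the same way with smaller sizes, beside 16.9% of all genes lower and 13.8% higher. Of 51 ribosome biogenesis and MYC target genes 24 (47.1%) fell and 5 rose. Nme1, a nucleoside diphosphate kinase, read 7.36, 7.39 and 7.54 at day 0 and 6.13, 6.21 and 6.27 at day 4 (-1.23 ± 0.08, adjusted p = 6.63e-07). Bop1, needed for the large ribosomal subunit, fell by 0.95 ± 0.07, the polyamine enzymes Odc1 and Srm by 1.09 and 0.77 and the pyrimidine enzyme Cad by 0.80. The E-box CACGTG, which MYC binds, was found in 12 of 46 promoters of this list (26.1%) and in 8.18% of all promoters, and in 7 of the 21 members that fell and have one. Ribosomal proteins themselves did not fall with it: of 41, 9 rose and 2 fell, by 0.44 or less for the rises, and 5 rose without KO day 0 array 1 or 2, without KO day 4 array 1, with arrays centred on their medians, with the probe sets of a gene averaged or with all probe sets tested. Of 30 proteasome subunits 16 (53.3%) fell and 1 rose, among them Psmd13 (-0.93), Psmb6 (-0.69) and Psmc4 (-0.69). Of 27 endoplasmic reticulum folding genes 17 (63%) fell and 3 rose. The chaperones Hyou1 and Hspa5 fell by 0.85 and 0.60, and the oxidases Ero1a and Ero1b rose by 1.71 and 0.99.

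Sterol synthesis genes fell with few exceptions, while 16.9% of all genes fell and 13.8% rose. Of 19 cholesterol biosynthesis genes 17 (89.5%) fell and 0 rose, with a median of -0.92. Lss, which closes the sterol rings, read 8.36, 8.35 and 8.30 at day 0 and 6.44, 6.51 and 6.61 at day 4, a 3.52-fold fall (-1.82 ± 0.15, adjusted p = 2.32e-06). Fdps and Fdft1, which build farnesyl diphosphate and squalene, fell by 1.43 and 0.89, and Nsdhl, Mvk and Hsd17b7 by 1.33, 1.25 and 1.22. The list means moved by -0.96, -0.96 and -0.91 on the 3 day 4 arrays, so that all of them showed the fall alike. The sterol element TCACNCCAC was found in 1 of 15 promoters of the list (6.67%) and in 1.22% of all promoters. Of 23 fatty acid synthesis genes 13 fell and 1 rose: Fasn, the synthase, fell from 10.24, 10.08 and 10.13 to 8.84, 8.76 and 8.90 (-1.31 ± 0.11, adjusted p = 3.8e-06), with Acly down by 1.03 and the desaturases Fads3 and Fads2 by 1.13 and 0.98. Genes of fat uptake and storage rose more often than they fell. Of 25 adipogenic genes 11 (44%) rose, 2 fell and 12 did not pass. Apod, a lipid carrier, rose from 7.96, 8.20 and 8.17 to 10.62, 11.03 and 10.69 (2.67 ± 0.14), and the fatty acid receptor Cd36 rose by 2.73 ± 0.38. Of 23 peroxisome genes 10 (43.5%) rose and 1 (4.35%) fell, by 0.62 at most for the rises.

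**Figure D2:**
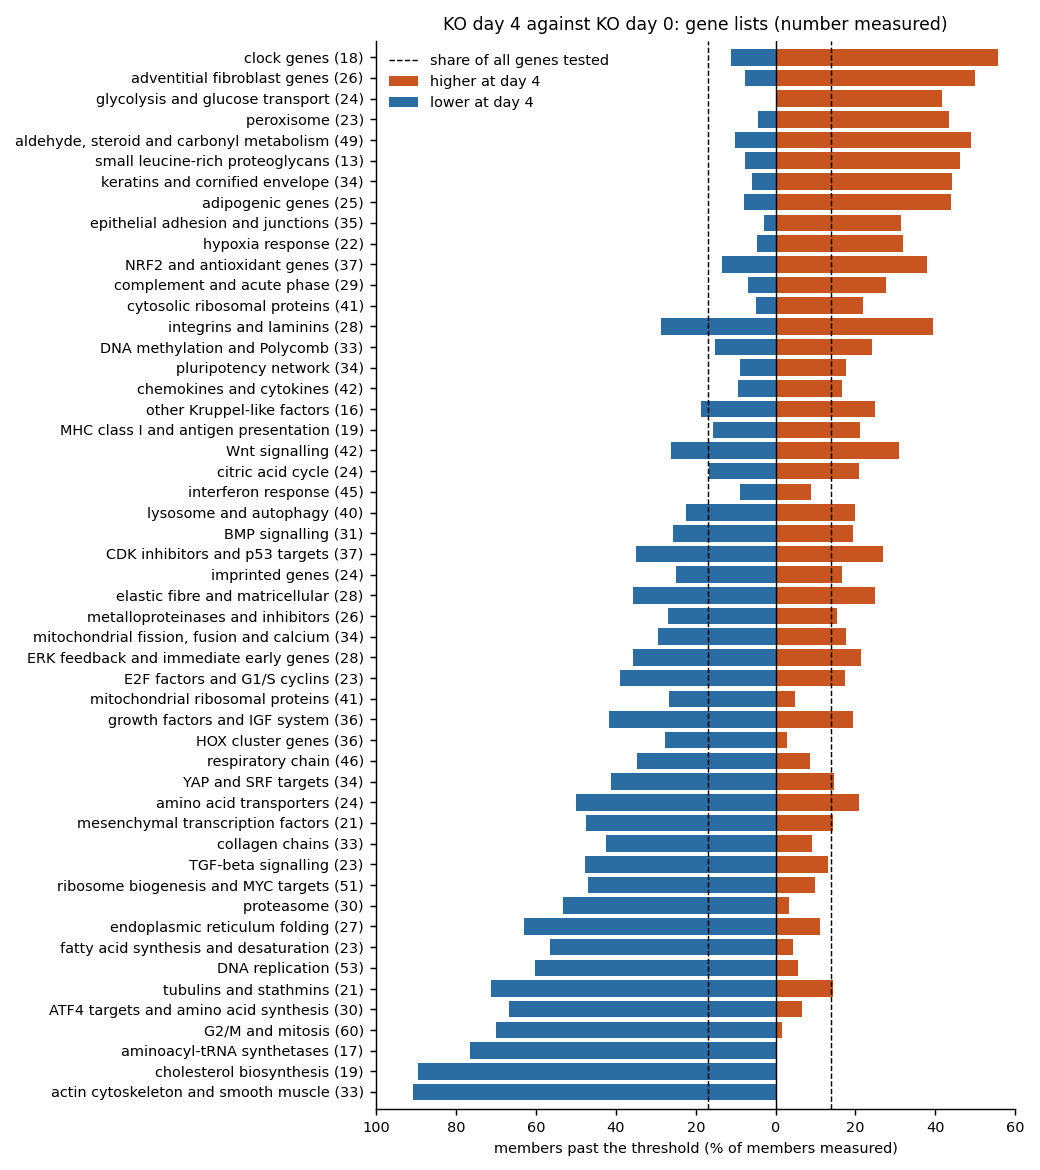
Share of the measured members of each gene list (number in brackets) that rose (orange, right) or fell (blue, left) in KO day 4 against KO day 0; dashed lines mark the shares of all 22180 genes, 13.8% higher and 16.9% lower. Contractile, cholesterol, tRNA synthetase and mitosis lists reach 70% to 90.9% lower, and clock, adventitial and aldehyde lists between 49.0% and 55.6% higher.

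Glucose use and hypoxia genes rose more often than they fell, while 13.8% of all genes rose and 16.9% fell. Of 24 glycolysis and glucose transport genes 10 (41.7%) rose and 0 fell. Slc2a3, a high-affinity glucose transporter, read 4.82, 4.76 and 4.85 at day 0 and 7.31, 6.83 and 7.25 at day 4, a 4.99-fold rise (2.32 ± 0.17, adjusted p = 1.26e-06). Aldoc rose by 2.31 ± 0.24, and Pdk4 and Pdk2, kinases that hold back pyruvate entry into mitochondria, by 1.75 ± 0.22 and 0.76 ± 0.10. Of 22 hypoxia response genes 7 (31.8%) rose and 1 fell, and the median change was 0.50. That count became 13 without WT day 4 array 1, and the median was 0.51 without KO day 4 array 2. Epas1, the oxygen-regulated factor HIF-2 alpha, rose by 1.97 ± 0.21 and Mxi1, an antagonist of Myc, by 1.05 ± 0.16.

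Mitochondrial genes are of interest because Gdap1 acts on that organelle. Most of them did not pass, which holds for all genes too, of which 30.8% passed, 13.8% as higher and 16.9% as lower. Of 46 respiratory chain genes 16 (34.8%) fell, 4 (8.7%) rose and 26 did not pass, with a median of -0.20. The lower count was 10, 9 and 9 without KO day 0 array 1, 2 and 3. Uqcrq, a subunit of complex III, read 6.13, 6.13 and 6.25 at day 0 and 5.17, 5.32 and 5.20 at day 4 (-0.94 ± 0.08, adjusted p = 3.28e-06), Ndufs8 of complex I fell by 0.62 and cytochrome c (Cycs) by 0.55, while Ndufa6 rose by 0.86 ± 0.11. COX1 and COX3, complex IV subunits encoded in mitochondrial DNA, each passed with 0.24 from day 0 means of 12.68 and 12.03. Both calls were lost with arrays centred on their medians, that of COX1 also with quantile normalization and that of COX3 without KO day 0 array 1 (adjusted p between 0.0543 and 0.0782). Of 41 mitochondrial ribosomal proteins 11 (26.8%) fell, 2 (4.88%) rose and 28 did not pass. Of 34 genes of fission, fusion and calcium handling 10 (29.4%) fell, 6 (17.6%) rose and 18 did not pass. In that last list Slc8b1, the sodium and calcium exchanger of the inner membrane, rose from 7.13 ± 0.12 to 8.25 ± 0.15 (SD, n = 3, change 1.12 ± 0.12, adjusted p = 2.17e-05). The fusion protein Mfn1 rose by 0.57 ± 0.07, the motor adaptors Trak1 and Trak2 moved in opposite directions (0.63 and -0.61), and Smdt1 of the calcium uniporter and the carrier Letm1 fell by 0.55 and 0.63. Of 24 citric acid cycle genes 5 (20.8%) rose and 4 (16.7%) fell. Mdh1 rose by 0.64 and Mdh2 fell by 0.38, and the count of rises was between 2 and 3 without any 1 KO day 0 array, without KO day 4 array 1 or 3 and without WT day 0 array 3.

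Detoxifying enzymes gave the most rises of any list by count, though not by share. Of 49 aldehyde, steroid and carbonyl metabolising genes 24 (49%) rose and 5 (10.2%) fell, against 13.8% and 16.9% of all genes. The median change was 0.43, and 13 of the rises were at least 2-fold. Aldh1a1, which makes retinoic acid, read 5.51, 5.82 and 5.41 at day 0 and 7.31, 7.75 and 7.35 at day 4 (1.89 ± 0.13, adjusted p = 6.93e-07). Adh7, an alcohol and retinol dehydrogenase, rose by 2.61 ± 0.14 and Aldh6a1 by 1.25 ± 0.07. Cbr2, a carbonyl reductase, went the other way, from 10.27, 10.28 and 10.38 to 8.14, 8.73 and 8.23 (-1.94 ± 0.14, adjusted p = 9.02e-07). Of 37 NRF2 and antioxidant genes 14 (37.8%) rose and 5 fell. The glutathione transferases Gsta4, Gstt1, Gstp1 and the microsomal Mgst1 and Mgst3 rose by 1.79, 0.90, 0.91, 1.21 and 1.01.

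Clock genes rose more than they fell, with 10 of 18 (55.6%) higher and 2 (11.1%) lower, against 13.8% and 16.9% of all genes. Dbp, an output factor of the clock, read 7.11, 7.19 and 6.96 at day 0 and 8.50, 8.25 and 8.41 at day 4 (1.30 ± 0.09, adjusted p = 6.13e-07). Per3, Cry2 and Per1, of the repressing arm, rose by 1.11, 0.88 and 0.39, Nr1d1 by 0.84 and Clock itself by 0.57. The hour at which cells were collected is not given in the labels.

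Epithelial genes rose more often than they fell, and mesenchymal factors fell more often than they rose. Of 35 epithelial adhesion genes 11 (31.4%) rose, 1 fell and 23 did not pass, with a median of 0.14, and of 34 keratins and cornified envelope genes 15 (44.1%) rose and 2 fell. Perp, a desmosome protein, read 4.79, 4.89 and 4.83 at day 0 and 7.81, 7.30 and 7.88 at day 4 (2.82 ± 0.15, adjusted p = 1.05e-07), and Pkp1, another, rose by 2.57 ± 0.26. Grhl3, an epithelial transcription factor, rose by 0.94 ± 0.14. Of the squamous genes Tgm1, a crosslinking enzyme of the cornified envelope, rose by 3.16 ± 0.50, Slurp1 by 2.73 ± 0.18 and the simple keratin Krt19 by 1.11 ± 0.14. Of these lists 5 epithelial members and 9 of the keratin list had mean levels under 3.75, below which 25% of genes lay. Of 21 mesenchymal factors 10 (47.6%) fell and 3 rose. Twist2 read 9.68, 9.91 and 9.84 at day 0 and 7.90, 8.40 and 7.95 at day 4 (-1.73 ± 0.13, adjusted p = 1.8e-06), Snai1 fell by 1.09 and N-cadherin (Cdh2) by 1.52. Meox2 rose instead, by 2.24 ± 0.12. Of 36 HOX genes 10 (27.8%) fell and 1 (2.78%) rose, against 16.9% and 13.8% of all genes. The falls were led by Hoxb9 (-1.16 ± 0.14), and 6 members fell without KO day 4 array 3.

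**Figure D3:**
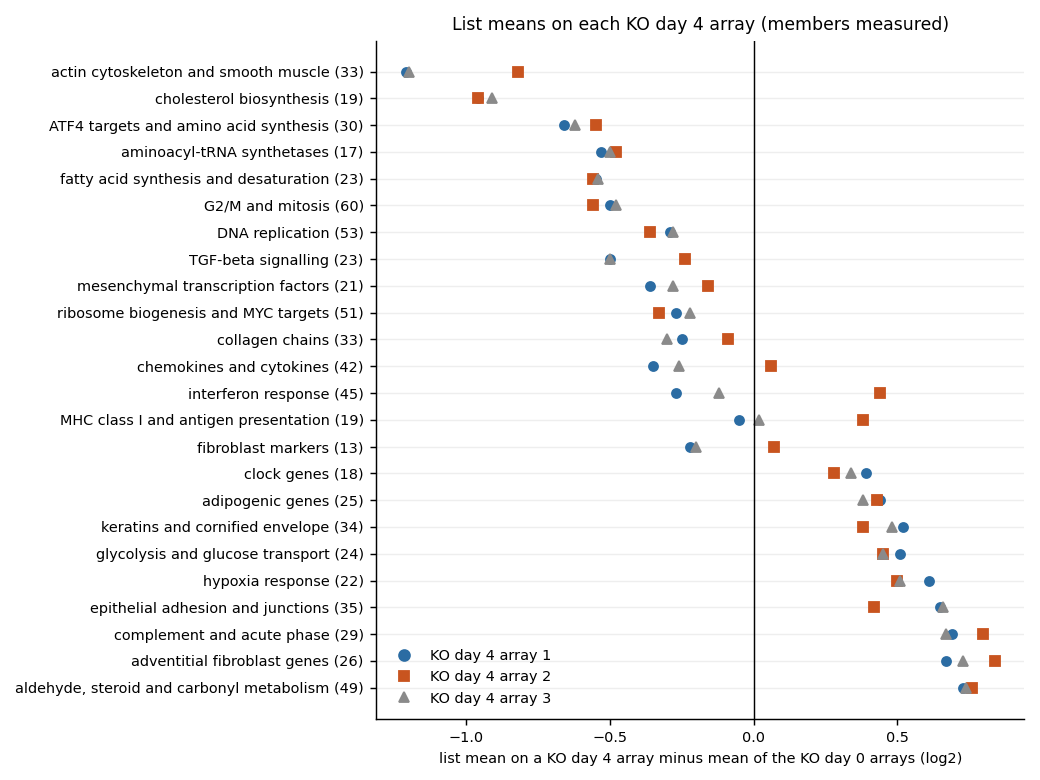
Mean log2 level of 24 gene lists on each KO day 4 array minus the mean over the KO day 0 arrays (members measured in brackets). Arrays 1 and 3 lie close together; array 2 lies nearer to 0 for the contractile list (-0.82 against -1.21 and -1.20) and on the other side of 0 for the interferon list (0.44 against -0.27 and -0.12).

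Interferon-inducible genes gave few calls as a list, and a few of them had large changes. Of 45 measured, 4 (8.89%) rose and 4 (8.89%) fell, against 13.8% and 16.9% of all genes, and the median change was -0.02. The count of rises was 8 without WT day 4 array 1 and 11 with the KO arrays fitted alone. Without KO day 4 array 2 the median was -0.26. Per array the list mean moved by -0.27, 0.44 and -0.12. The rises were 3 oligoadenylate synthetases, enzymes that sense double-stranded RNA, and the ubiquitin ligase Trim25. Oas2 read 6.12, 5.36 and 5.42 at day 0 and 9.73, 10.09 and 10.05 at day 4, a rise of 4.32 ± 0.52. Oas3 read 5.06, 5.32 and 5.08 before and 6.44, 6.50 and 6.21 after (1.23 ± 0.19, adjusted p = 0.000357), and Oas1g rose by 1.94 ± 0.52 (adjusted p = 0.0121). Oas2 and Oas3 were separate between the groups on every array, and in them array 2 was not apart from the other day 4 arrays. Trim25 gave 0.63 ± 0.17 (adjusted p = 0.0126, and 0.0512 without KO day 4 array 2).

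The falls of the list were led by a relative of these enzymes. Oasl1, a synthetase-like protein, read 7.48, 7.58 and 7.75 at day 0 and 5.49, 6.50 and 5.86 at day 4 (-1.65 ± 0.40, adjusted p = 0.00625). The nucleotide kinase Cmpk2 gave -1.33 ± 0.39 (adjusted p = 0.0208), Ifit2 -0.57 ± 0.16 (0.0162) and the GTPase Irgm1 -0.86 ± 0.30 (0.0463). Cmpk2 lost the call with a trended and robust prior and without KO day 0 array 1 or 2 and KO day 4 array 1 or 3, Ifit2 without KO day 0 array 1 or 3 and KO day 4 array 1, and Irgm1 without any 1 of 9 of the 12 arrays and under 3 other settings. Their adjusted p then reached 0.0952, 0.0752 and 0.179. Ifit1, an RNA-binding antiviral protein, read 10.22, 10.02 and 10.11 at day 0 and 8.91, 9.87 and 8.88 at day 4 (-0.90 ± 0.49, adjusted p = 0.193). In WT cells the same list gave 29 rises and 0 falls, from lower day 0 levels: Ifit1 read 4.93, 5.27 and 5.28 on the WT day 0 arrays and 9.38, 7.93 and 6.68 on the WT day 4 arrays. The interferon-stimulated element GAAANNGAA was found in 22 of 33 promoters of the list (66.7%) and in 8.09% of all promoters. The promoter of Oas3, minus strand, chr5:120777610-120777909 (GRCm38.p6), is shown by the rule used above, the smallest p among members past the threshold with a match. It holds 2 overlapping matches in capitals.
Oas3: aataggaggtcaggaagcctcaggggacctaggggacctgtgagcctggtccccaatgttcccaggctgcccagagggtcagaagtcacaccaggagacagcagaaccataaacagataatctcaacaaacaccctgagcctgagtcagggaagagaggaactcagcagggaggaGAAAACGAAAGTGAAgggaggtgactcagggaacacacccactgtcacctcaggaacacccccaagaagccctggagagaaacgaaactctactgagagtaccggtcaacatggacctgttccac

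**Figure D4:**
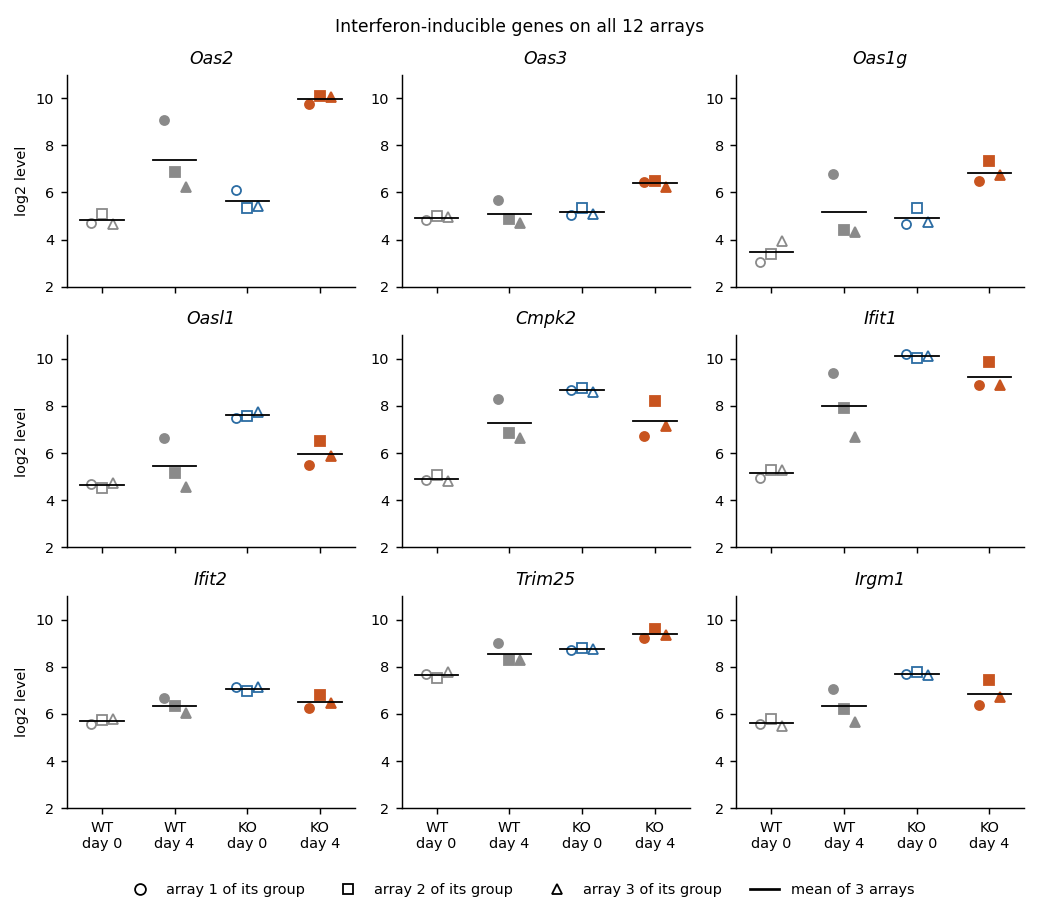
Log2 level of 9 interferon-inducible genes on all 12 arrays, by group; symbols give the array number within a group and lines the mean of 3 arrays. Oas2 lies between 9.73 and 10.09 on the KO day 4 arrays against 5.36 to 6.12 at KO day 0, while Oasl1, Cmpk2 and Ifit1 are highest in KO day 0.

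Other immune genes were divided, beside shares of all genes of 13.8% higher and 16.9% lower. Of 29 complement and acute phase genes 8 (27.6%) rose and 2 fell, a count of 14 without WT day 4 array 1. Cd55, which shields cells from complement, rose from 5.94, 5.75 and 5.81 to 8.43, 8.69 and 8.55 (2.72 ± 0.15, adjusted p = 1.41e-07), with C4b up by 2.78 and Serping1 by 1.56. Of 42 chemokines and cytokines 7 (16.7%) rose and 4 (9.52%) fell, against 13.8% and 16.9% of all genes. Ppbp, a platelet-type chemokine, fell from 10.20, 10.17 and 10.14 to 7.33, 8.41 and 7.34 (-2.47 ± 0.24, adjusted p = 1.13e-05), and Cxcl13 and Tslp rose by 1.44 and 1.38. Of 19 antigen presentation genes H2-K1, H2-M3, H2-T23 and Tap2 rose and Tapbpl, Calr and Psmb10 fell. H2-K1 read 8.70, 8.96 and 8.85 at day 0 and 10.06, 10.54 and 10.31 at day 4. Tap2 (0.65, adjusted p = 0.0186) lost its call without KO day 0 array 1 or 2 or KO day 4 array 2, at adjusted p up to 0.0657. Reads of the H2 genes are uncertain, since near-identical copies can share a probe set.

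A large share of the changed genes changed in cells with Gdap1 as well. In WT cells 5072 genes (22.9%) passed from day 0 to day 4, and the WT comparison shares no array with the KO one. Of the 3071 genes that rose in KO cells, 1648 rose in WT cells as well (53.7% of the KO rises and 66.7% of the WT rises), 42 fell there and 1381 did not pass. Of the 3757 that fell, 1798 fell in WT cells (47.9% and 69.1%), 30 rose there and 1929 did not pass. A gene that passes in KO and not in WT cells is not thereby shown to differ. The KO change minus the WT change passed for 877 genes (3.95%), 476 with the higher change in KO cells (2.15%) and 401 with the lower (1.81%). It passed for 328 of the KO rises (10.7%) and 364 of the KO falls (9.69%). That count was 2140 without WT day 4 array 1, between 427 and 430 without any 1 KO day 0 array, between 395 and 486 without any 1 WT day 0 array, 538 and 576 without KO day 4 arrays 1 and 3, and 543 without WT day 4 array 3.

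Named genes whose change differed kept that call under every alternative analysis tried, unless stated. Prelp rose by 3.36 in KO cells and by 0.78 in WT cells, where it already read 10.36, 10.49 and 10.36 at day 0 (difference 2.58 ± 0.17, adjusted p = 5.14e-05). With the probe sets of a gene averaged, that difference was 1.27. Nppb, the natriuretic peptide precursor, read 4.85, 4.34 and 4.70 at KO day 0 and 7.12, 6.60 and 7.33 at KO day 4, against 6.02, 5.76 and 5.48 and then 6.18, 5.21 and 5.47 in WT cells (difference 2.52 ± 0.35, adjusted p = 0.00276). Lgr5, a receptor for R-spondins, rose by 1.62 from 7.65, 7.31 and 7.63 in KO cells, and WT cells read 9.62, 9.53 and 9.58 at day 0 and 8.08, 9.68 and 8.90 at day 4 (difference 2.31 ± 0.44, adjusted p = 0.0135). Nqo1, a quinone reductase under NRF2, rose by 0.64 in KO cells and fell by 1.18 in WT cells (difference 1.83 ± 0.21, adjusted p = 0.00103). Aldh1a1, Itga6, Pdk4 and Nr1d1 rose in KO cells by 1.89, 1.34, 1.75 and 0.84, and their WT changes lay between -0.07 and 0.10. Slc2a3, Perp and Wnt16 rose in both but by 1.51, 1.70 and 0.92 more in KO cells.

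Falls differed too. Cbr2 fell by 1.94 in KO cells to 8.14, 8.73 and 8.23, near the level of WT cells, which read 8.66, 8.70 and 8.40 at day 0 and 8.73, 8.54 and 8.66 at day 4 (difference -1.99 ± 0.19, adjusted p = 0.000342). Trim28, Cad and Mmp10 fell in KO cells by 0.79, 0.80 and 1.84, with WT changes between -0.08 and 0.10. Nme1 and Bop1 fell further in KO than in WT cells, by differences of -0.78 ± 0.12 and -0.71 ± 0.10. In the ribosome biogenesis list the difference passed for 9 of 51 members, all lower in KO cells, and in DNA replication for 8 of 53, all lower. In the interferon list it passed for 8 of 45 as lower and for 1 as higher. Of all genes 1.81% passed as lower and 2.15% as higher. Contractile genes showed the opposite order: the difference passed for 5 of the 33 members of that list, all with the larger fall in WT cells. Among them were Tpm2 (-1.07 in KO and -2.36 in WT cells) and Ankrd1 (-2.23 and -3.41). The gap junction gene Gjb2 and Map3k7cl fell by 1.86 and 0.95 in KO cells and by 3.77 and 2.98 in WT cells. Gjb2 started higher in WT cells, with means of 9.58 at day 0 and 5.80 at day 4, against 7.01 and 5.15 in KO cells. Fhl5 gave -0.42 in KO cells, not past the threshold, and fell by 2.91 in WT cells from a higher start of 6.26, 6.54 and 6.41. The KO day 0 mean of Fhl5, 3.54, lay under the level of 3.75 below which 25% of genes lay, so a fall of the WT size could hardly be measured in KO cells and the difference of 2.49 depends on that floor. Cmpk2 and Ifit1 had the most negative differences, -3.69 ± 0.56 (adjusted p = 0.00456) and -3.74 ± 0.69 (adjusted p = 0.012). Reg1 and Slitrk6 gave 0.10 and 0.01 in KO cells and rose by 2.14 and 2.54 in WT cells.

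**Figure D5:**
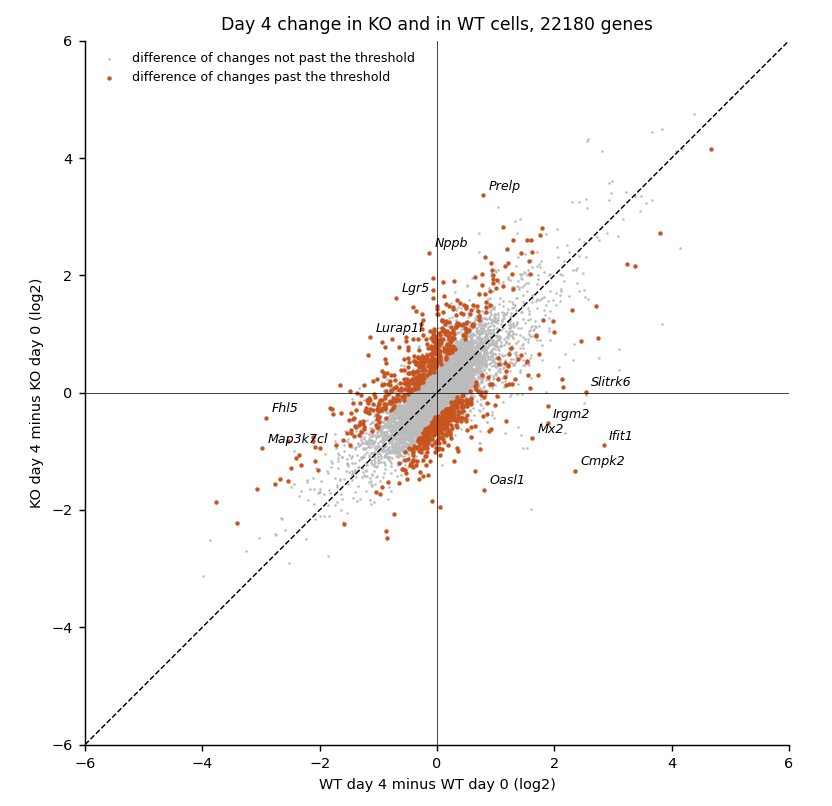
Day 4 minus day 0 change (log2) of 22180 genes in KO cells (vertical) against WT cells (horizontal); orange points are the 877 genes whose difference of changes passed the threshold, and the dashed line marks equal change. Prelp, Nppb and Lgr5 lie above the line, and Ifit1, Cmpk2 and Oasl1 below it.

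Among the 10 genes of highest level that fell, galectin-1 (Lgals1) read 12.51, 12.50 and 12.54 at day 0 and 11.58, 11.88 and 11.65 at day 4 (-0.82 ± 0.11, adjusted p = 0.000146), and the matrix protein tenascin-C (Tnc) fell from 12.17, 12.15 and 12.07 to 10.97, 11.55 and 11.03. Tubb5 fell by 0.31, and the vesicle proteins Arf1 and Kdelr2 by 0.42 and 0.38. Among the 10 of highest level that rose, Emp1, a membrane protein of epithelia, went from 11.65, 11.62 and 11.67 to 12.16, 12.18 and 12.13 (0.51 ± 0.07, adjusted p = 0.000148) and the ribosomal protein Rpl4 rose by 0.39 ± 0.07. The lists that follow stand beside shares of all genes of 13.8% higher and 16.9% lower. Imprinted genes, which are read from 1 parental copy, had 4 rises and 6 falls among 24. Peg10 fell by 1.10 ± 0.12 and Kcnq1ot1 rose by 0.75 ± 0.08. Of 33 DNA methylation and Polycomb genes 8 (24.2%) rose and 5 (15.2%) fell. Ezh1 rose by 1.08 ± 0.10 and Phf19 fell by 0.71 ± 0.09. Of 28 ERK feedback and immediate early genes 6 (21.4%) rose and 10 (35.7%) fell, with Etv5 up by 1.06 and Etv4 down by 1.04. Of 40 lysosome and autophagy genes 8 rose and 9 fell, among them cathepsin F (Ctsf, 1.38 ± 0.11) and beta-glucuronidase (Gusb, -0.85 ± 0.10).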

How the data were processed

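RNA of 12 samples, 3 in each of 4 groups, was hybridised to 1-colour Affymetrix arrays. The deposited values are log2 levels per probe set, made by the authors with Affymetrix Expression Console per the submitters' processing notes. The normalization is not given in the sources used here. Of 41345 probe sets, 23521 carry 1 gene symbol, 1814 several and 16010 none. Each of 22180 genes was read from its probe set of highest mean over the 12 arrays, and 1082 genes had more than 1. There were 0 columns of other samples. Precision is limited by how many arrays there are.

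Group means were fitted with limma 3.58.1 in R 4.3.3 to all 12 arrays (8 residual and 4.56 prior degrees of freedom), with contrasts for the KO change, the WT change and their difference. P-values were adjusted by Benjamini-Hochberg over all genes, with a threshold of 0.05. Simulated data with 22180 genes had independent normal noise of 1 spread per gene in all groups. Of 67, 67 and 66 genes changed by 1.5, 2 and 4-fold, the KO comparison recovered 77.6%, 97.0% and 100.0%, with 10 false among 193 calls. The data themselves gave 6828 calls and a wider median SD at KO day 4 (0.12) than at KO day 0 (0.09), so these rates need not carry over. Samples were not paired, since the labels do not say what replicate numbers mark. Deviations of arrays from their group means correlated between -0.0602 and 0.182 over 18 same-numbered pairs, and between -0.204 and 0.116 for unlike numbers. Same-numbered KO day 0 and KO day 4 arrays gave -0.0233 to 0.00281. Between WT day 4 and KO day 4, arrays 1, 2 and 3 gave -0.0129, 0.182 and 0.116. Whether these numbers mark a shared batch was not tested.

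Genes were named by a rule: the 20 largest rises and falls with no overlap between groups, the 4 factors and Gdap1, up to 6 members of smallest p in each of 60 lists (all where 8 or fewer passed, 2 where none did), every fibroblast and pluripotent marker, the 10 largest differences in each direction and the 10 highest levels in each direction. Predicted, clone, small RNA, pseudogene, receptor and segment names were left out of the ranked sets. Not every gene that the rule picked is described in the text. Not described are Necab1 among the rises, Gpr149, Prnd and Slco4a1 among the falls, and Lurap1l, Elobl, Irgm2, Mx2, Gbp7 and Clstn2 among the differences. Some genes of highest level and some list members are not described either. The members and lists were chosen with earlier results of these data known. Promoters are the RefSeq tables' 250 bases before to 50 after each start. Alternatives were other filters, normalizations, probe set rules, priors, weights, fits and each array left out.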

Additional observations from a re-analysis of the deposited data

Results flagged for a closer look

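The day 4 change differed between cells without and with Gdap1, by limma's adjusted p of the difference under 0.05, for these genes described above. Values are the change in KO cells minus that in WT cells on the log2 scale, from 3 arrays in each group. Genes that the naming rule picked but the text does not describe are left out. Some of those passed too, among them Elobl (2.02), Hbegf (1.29) and Gbp7 (-2.13). Genes with the higher change in KO cells, whose call held under every alternative tried, come first. Largest were Prelp 2.58, Nppb 2.52, Fhl5 2.49, Lgr5 2.31, Map3k7cl 2.03, Gjb2 1.91 and Pdk4 1.83. They were followed by Nqo1 1.83, Aldh1a1 1.79, Perp 1.70, Slc2a3 1.51, Emcn 1.36, Itga6 1.34 and Tpm2 1.29. Emcn went from means of 4.10 to 3.35 in KO cells and of 5.18 to 3.08 in WT cells. Both day 4 means lay under the level of 3.75, so the size of its difference is limited by the floor. Smaller were Tslp 1.28, Adamts5 1.19, Ankrd1 1.18, Adh7 1.08, Wnt16 0.92, Col4a5 0.90 and Laptm5 0.88. Smallest were Timp3 0.87, Nr1d1 0.85, Gsta4 0.79 and Eng 0.73.

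Genes with the lower change in KO cells and a call that held under every alternative follow. Most negative were Ifit1 -3.74, Cmpk2 -3.69, Slitrk6 -2.52, Reg1 -2.04, Cbr2 -1.99, Mmp10 -1.76 and Lum -1.50. Nearer to 0 lay Psmb10 -1.46, Ifit2 -1.22, Pi16 -1.22, Cad -0.90, Gusb -0.83, Trim28 -0.81 and Nme1 -0.78. Last came Bop1 -0.71, Tbx3 -0.61 and Uqcrq -0.57.

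Other genes passed and lost the call under 1 or more alternatives, most often when 1 array was left out. With the higher change in KO cells these were in order of size the following. At the top stood Fabp4 1.87, Ccn2 1.20, Oas3 1.07, Podn 1.01, Sfrp2 0.88, Etv5 0.79 and Meox2 0.67. Below them stood Per3 0.62, Thy1 0.58, Dbp 0.58, Efemp1 0.43 and Mfn1 0.42. With the lower change they were the following. At the far end stood Oasl1 -2.45, Slurp1 -1.08, Igfbp5 -1.05, Mcm5 -0.89, Fasn -0.78, Twist2 -0.75 and Tapbpl -0.74. In the middle stood Dcn -0.70, Tuba1a -0.67, Cck -0.65, Tk1 -0.56, Cdc25c -0.55, Cdc45 -0.53 and Akr1c18 -0.52. Closest to 0 stood Letm1 -0.52, Kif2c -0.51, Srm -0.50, Ndufs8 -0.48 and Psmb6 -0.45.

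Probe sets with no gene symbol or several took no part in the comparisons of genes. Of 17824 such probe sets, 2737 (15.4%) passed the threshold in KO day 4 against KO day 0, 1474 of them higher and 1263 lower. At least 2-fold were 290 rises and 154 falls.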

How the results depend on the processing

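The 260 named genes that passed in KO day 4 against KO day 0 were refitted under every alternative; 249 kept direction and call in all of them, 11 lost the call in at least 1, and 0 reversed. With each array left out in turn, the KO count ranged from 5539 to 7646 genes, the rises from 2461 to 3468 and the falls from 3043 to 4178. The WT count ranged from 3977 to 5165 and the count of differing changes from 395 to 2140. Requiring at least 2-fold changes left 834 genes in KO cells (529 higher and 305 lower), 779 in WT cells and 179 differing changes. The count of differing changes was 503 with all probe sets tested and 1852 with array weights, and the cause was not tested. With the replicate number as a replicate block, although the labels do not say that numbers pair arrays, the KO count was 6647. The count of differing changes was then 801. Over 60 lists and all alternatives, 36 counts of members moved by over 1.5 times. Signal near the floor of the array, under a level of 3.75, limits what can be said of keratin, complement and pluripotency genes. With 3 arrays in each group, the precision of all values is limited.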
